A study of Homo sapiens with 32 samples.

Results

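The SR splicing factors described here are 10 genes, SRSF1, SRSF2, SRSF3, SRSF4, SRSF5, SRSF6, SRSF7, SRSF10, SRSF11 and TRA2B, of the 60662 gene IDs counted in each library. They were chosen by name, and all 10 were found and passed the filter on low counts in every fit. The data are poly(A)-selected RNA sequencing of HEK293T, a line derived from human embryonic kidney and made to express SV40 large T antigen; 3 experiments gave 32 libraries. N6-methyladenosine (m6A) is written in mRNA by METTL3, which the compound STM2457 blocks, and the series was made to follow mRNA levels when m6A is depleted. YTHDF2 is a reader of m6A that brings mRNAs to deadenylation, and emetine is a translation inhibitor that blocks ribosomes during elongation.

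The knockdown experiment held 4 groups of 3 libraries, all treated for 6 h: YTHDF2 siRNA with STM2457, YTHDF2 siRNA with DMSO, STM2457 alone, and DMSO alone. The 9 h experiment held 4 libraries with STM2457 and 4 with DMSO. The emetine experiment held 4 groups of 3 libraries, all treated for 6 h, with emetine at 1.8 µM or DMSO in its place in the last 2 h. The groups were STM2457 with emetine, DMSO with emetine, STM2457 without emetine, and DMSO without emetine. In this experiment "without emetine" means that the last 2 h were with DMSO. STM2457 was given at 20 µM, and every group, controls included, carried 0.2% DMSO. The siRNA was used at 20 nM and cells were harvested 48 h after transfection. Whether the libraries without YTHDF2 siRNA, labelled WT, received a control siRNA is not stated, so transfection and YTHDF2 knockdown cannot be told apart. The labels do not state that replicates came from separate cultures, so p-values measure the spread between these samples, which may be technical.

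SR proteins carry RNA recognition motifs and a domain rich in arginine and serine, bind exonic enhancers in pre-mRNA, and help the spliceosome choose splice sites. Many SR genes are known to hold a poison exon, an alternative exon that brings in a premature stop codon, and high levels of an SR protein favour its own poison exon. An mRNA with a stop codon well upstream of its last exon junction is a target of nonsense-mediated decay (NMD), which needs translation. Gene counts sum over all transcripts of a gene, so reads of the poison-exon form and of the coding form cannot be told apart here.

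In GENCODE release 29 all 10 genes had at least 1 transcript classed as NMD, against 35.6% of 19951 protein coding genes. These genes held 22 NMD transcripts with an annotated stop codon. The stop lay 98 to 1141 bases upstream of the last exon junction, with a median of 443. In 6 genes, SRSF3, SRSF4, SRSF6, SRSF7, SRSF11 and TRA2B, the stop fell inside an internal exon that overlaps no exon of the longest coding transcript. For SRSF11 and TRA2B this exon does overlap another transcript classed as coding. In SRSF2 both NMD transcripts end at the stop of the coding form and carry further exons after it. SRSF1, SRSF5 and SRSF10 had NMD transcripts but no exon that met this rule.

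The exons of these 6 genes are shown because they hold the stop codon that ends the reading frame of the NMD transcript, from their first base to that stop, 5′ to 3′ on the gene's strand, with the stop in capitals. Sequences are from GENCODE 29 transcripts and positions on GRCh38 are of the whole exon. The SRSF3 exon is exon 4 of SRSF3-203, chr6:36599821-36600276, plus strand, 456 bases long, and a second SRSF3 exon of 98 bases (SRSF3-204, chr6:36598429-36598526) met the same rule and is not shown. The SRSF4 exon is exon 4 of SRSF4-206, chr1:29165890-29166064, minus strand, 175 bases. The SRSF6 exon is exon 3 of SRSF6-202, chr20:43459153-43459420, plus strand, 268 bases. The SRSF7 exon is exon 4 of SRSF7-204, chr2:38748898-38749346, minus strand, 449 bases, and a shorter form of 276 bases is annotated as well. The SRSF11 exon is exon 4 of SRSF11-212, chr1:70231859-70231975, plus strand, 117 bases. The TRA2B exon is exon 2 of TRA2B-206, chr3:185931577-185931852, minus strand, 276 bases, and its stop is also that of a transcript classed as coding.
SRSF3: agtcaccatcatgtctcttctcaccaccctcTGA
SRSF4: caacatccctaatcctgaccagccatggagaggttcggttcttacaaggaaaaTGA
SRSF6: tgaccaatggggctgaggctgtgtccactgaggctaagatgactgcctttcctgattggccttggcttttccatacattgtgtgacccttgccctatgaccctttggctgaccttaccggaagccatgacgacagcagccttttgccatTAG
SRSF7: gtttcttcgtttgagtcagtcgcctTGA
SRSF11: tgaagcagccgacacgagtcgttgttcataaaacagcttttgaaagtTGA
TRA2B: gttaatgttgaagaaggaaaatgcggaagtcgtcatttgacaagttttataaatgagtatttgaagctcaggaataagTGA

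Libraries of the knockdown experiment held 37694945 to 42303951 counts on genes, those of the 9 h experiment 22510323 to 34677704, and those of the emetine experiment 21781514 to 28053353. All 7 marker genes of the HEK293 line were above 1 CPM (a gene's count scaled to a common library size), summing to 1162 to 2106 CPM, while 5 hepatocyte and 4 keratinocyte markers summed to at most 0.444 and 0.12 CPM. Of 5 fibroblast markers COL1A1 and COL3A1 were above 1 CPM on average (sum of the 5 at 17.8 to 30.1 CPM), with COL1A2 and DCN below 0.1. YTHDF2 averaged 76.9 ± 3.28 CPM with siRNA and STM2457 and 43.3 ± 1.14 CPM with siRNA and DMSO, against 618 ± 36.8 CPM with STM2457 and 178 ± 3.91 CPM with DMSO (SD, n = 3 each). METTL3, whose enzyme STM2457 inhibits, averaged 75.6 ± 2.30 CPM with STM2457 and 68.9 ± 0.292 CPM with DMSO.

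STM2457 replicate 3 of the knockdown experiment stood apart: its counts differed from those of its 2 mates by a chi-square of 28.2 and 31.4 per degree of freedom over all genes. DMSO replicate 2 of that experiment differed from its mates by up to 24.1, and all other pairs of replicates by 1.79 to 11.9. Results that rest on STM2457 replicate 3 are given with and without it. Changes are log2 changes after TMM scaling, so "rose" and "fell" are relative to the typical gene of the same libraries. Scaling to 80 ribosomal protein genes or to ERCC spike-ins, RNAs added in fixed amount, moves all genes together. The median over all genes thereby moved by −0.26 and −0.37 for STM2457 at 6 h in the knockdown experiment, by −0.17 and −0.13 for STM2457 in the emetine experiment, and by 0.44 and 0.49 for emetine in DMSO. Spike-ins made up 0.328% to 0.463% of counts with STM2457 and 0.301% to 0.365% with DMSO in the knockdown experiment, and 0.400% to 0.470% with emetine and 0.529% to 0.592% without it in DMSO of the emetine experiment. At 9 h, without spike-ins, ribosomal protein scaling moved it by 0.17. Relative to the median of all genes, no member's change in the 9 comparisons between groups moved by more than 0.03 under these scalings. In bulk RNA, fewer cells of a kind and less RNA per cell cannot be told apart.

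SRSF2 was the most abundant of the 10 per length of exon and SRSF3 the next in all 3 experiments. That length merges the exons of all annotated transcripts of a gene, NMD transcripts included, so the order depends on the annotation. In CPM not divided by length the order differed. In DMSO of the knockdown experiment SRSF3 (656 ± 13.2 CPM) was above SRSF2 (519 ± 14.6), and TRA2B (304 ± 2.40) was above SRSF7 (283 ± 3.67) and SRSF1 (205 ± 3.02). SRSF2 (chr17:76734115-76737374), which acts in both constitutive and alternative splicing, averaged 172 ± 4.85 CPM per kb of exon in DMSO of the knockdown experiment (SD, n = 3). SRSF3 (chr6:36594353-36605600), the smallest SR protein and a link to mRNA export, averaged 92.2 ± 1.86. SRSF7 (chr2:38743599-38751494), which carries a zinc knuckle, averaged 69.9 ± 0.908, and SRSF1 (chr17:58003360-58007346), among the first SR proteins described, 61.4 ± 0.903. SRSF11 (chr1:70205682-70253052) averaged 36.1 ± 1.57 and SRSF6 (chr20:43457928-43464247) 33.4 ± 0.752. SRSF10 (chr1:23964804-23980927), a splicing repressor once it is dephosphorylated, averaged 26.4 ± 0.112, and TRA2B (chr3:185915906-185938136), a human homologue of Drosophila Transformer-2, 25.9 ± 0.204. SRSF4 (chr1:29147743-29181987) averaged 24.2 ± 1.02 and SRSF5 (chr14:69726900-69772005) 22.3 ± 0.0622.

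All neighbours in that order were farther apart than the sum of their SDs in the knockdown experiment. In DMSO at 9 h SRSF3 and SRSF1 (94.6 ± 0.877 and 93.5 ± 1.01 CPM per kb) were within it, as were SRSF6 and SRSF11, and SRSF5 and SRSF4 (SD, n = 4). In DMSO of the emetine experiment SRSF6 and SRSF11 were within it, as were SRSF4, TRA2B and SRSF5, which averaged 27.1 ± 0.127, 26.7 ± 0.559 and 26.5 ± 0.482 CPM per kb (SD, n = 3). SRSF1 overlaps the coding gene AC015813.2 on its own strand, SRSF2 overlaps MFSD11 and AC005837.2 and SRSF11 overlaps AL353771.1 on the opposite strand. The sources used here do not give the strand setting of the counting, so the split of these reads is uncertain. Reads on pseudogenes named for a member came to at most 0.011% of that member's count.

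SRSF6 was called in all 9 comparisons between groups, SRSF4 in 8 and SRSF10 in 1. Comparisons within an experiment share libraries, STM2457 alone and YTHDF2 siRNA alone being set against the same DMSO libraries, so their values are given side by side only. The plot of log2 changes by comparison shows SRSF4 higher with STM2457 in each of its 5 settings, and SRSF6 at 0.75 and 0.69 under emetine.

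**Figure D1:**
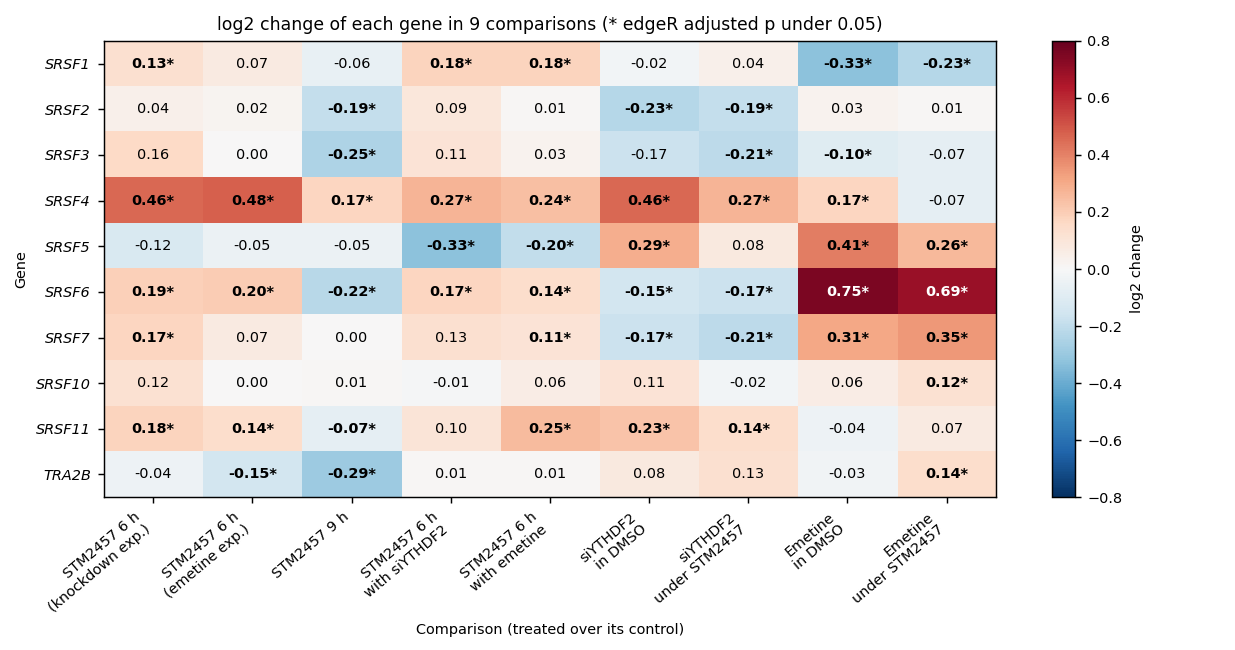
Rows are the 10 genes and columns the 9 comparisons between groups; each cell gives the log2 change of the treated group over its control after TMM scaling, red for higher and blue for lower, and an asterisk marks an edgeR adjusted p under 0.05. SRSF6 stands at 0.75 and 0.69 under emetine, and SRSF4 between 0.17 and 0.48 under STM2457.

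Emetine moved single members strongly and in both directions. In DMSO, 4 of the 10 genes were higher with emetine, against 33.9% of the 15817 genes tested, and 2 were lower, against 28.3% (edgeR adjusted p under 0.05), shares near the background. The members' median log2 change was 0.04 and that of all genes 0.04.

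SRSF6, an SR protein with a pair of RNA recognition motifs, stood at 280, 275 and 266 CPM in DMSO with emetine, against 162, 159 and 168 CPM in DMSO without emetine. All 3 emetine libraries were above all 3 without it. The log2 change was 0.75 (SE 0.04, edgeR adjusted p = 1.13e-18), a fold of 1.68 (95% interval 1.60 to 1.76), larger than that of 89.1% of genes. Under STM2457 SRSF6 stood at 296, 306 and 301 CPM with emetine, against 196, 186 and 180 CPM without. The groups did not overlap, and the log2 change was 0.69 (SE 0.04, edgeR adjusted p = 1.15e-17).

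SRSF5, closely related to SRSF6 and SRSF4, stood at 196, 189 and 181 CPM in DMSO with emetine, against 140, 145 and 142 CPM in DMSO without. The groups did not overlap, and the log2 change was 0.41 (SE 0.04, edgeR adjusted p = 5.76e-10). SRSF7 stood at 351, 362 and 361 CPM in DMSO with emetine, against 276, 285 and 303 CPM in DMSO without. It too rose without overlap, by 0.31 (SE 0.03, edgeR adjusted p = 1.47e-09). SRSF4, whose libraries lay at 272, 271 and 269 CPM in DMSO with emetine and at 240, 242 and 240 CPM in DMSO without, rose by 0.17 (SE 0.03, edgeR adjusted p = 4.8e-05).

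SRSF1 went the other way. It stood at 159, 161 and 173 CPM in DMSO with emetine, against 212, 214 and 196 CPM in DMSO without, with no overlap. The log2 change was −0.33 (SE 0.04, edgeR adjusted p = 2.32e-09). SRSF3 fell by 0.10 (SE 0.03, edgeR adjusted p = 0.00683), at 642, 651 and 646 CPM in DMSO with emetine and 693, 678 and 712 CPM in DMSO without. With ribosomal protein or spike-in scaling all genes shift upward, and 9 of 10 members were called higher and none lower. Of 15817 genes 11473 and 11558 were called higher and 406 and 227 lower under these scalings. SRSF1 then stood at 0.10 and 0.15 and SRSF3 at 0.34 and 0.38. Relative to the median of all genes SRSF1 stayed at −0.37 and SRSF6 at 0.71 to 0.72.

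Under STM2457, emetine raised 5 of 10 members (background 30.4%) and lowered 1 (background 29.4%). SRSF7 rose by 0.35 (SE 0.04, edgeR adjusted p = 1.78e-10), SRSF5 by 0.26 (SE 0.04, edgeR adjusted p = 4.89e-06), TRA2B by 0.14 and SRSF10 by 0.12. SRSF4, which rose with emetine in DMSO, stood at −0.07 (SE 0.03, edgeR adjusted p = 0.0786) and was not called. SRSF1 fell by 0.23 (SE 0.04, edgeR adjusted p = 3.93e-06), a value that turned to 0.28 and 0.31 with ribosomal protein and spike-in scaling. SRSF2 was not called, with a fold of 1.02 in DMSO (95% interval 0.975 to 1.07): it stood at 554, 550 and 552 CPM in DMSO with emetine and 550, 541 and 536 CPM in DMSO without. The plot of levels in the emetine experiment shows each library.

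**Figure D2:**
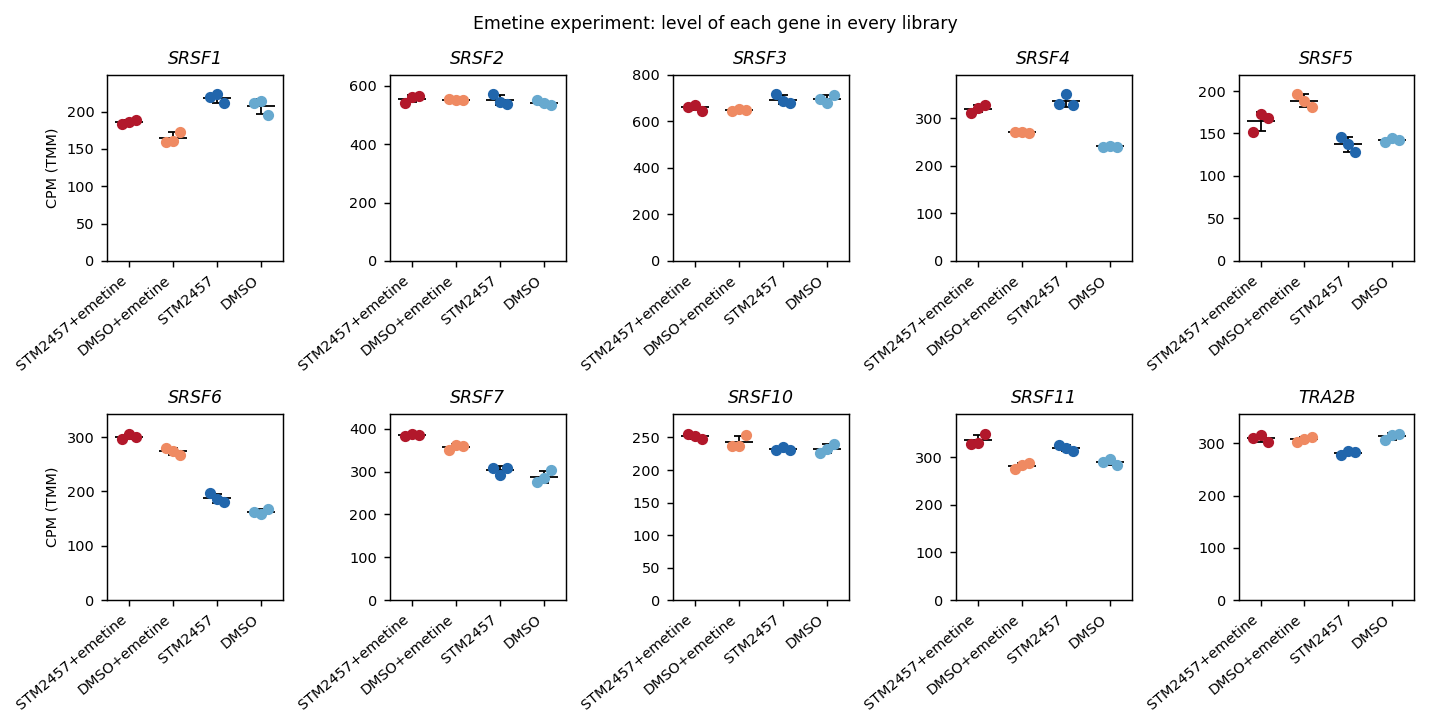
Each panel is 1 gene of the emetine experiment, with the groups STM2457 with emetine, DMSO with emetine, STM2457 and DMSO from left to right and CPM after TMM scaling on the y axis from 0; points are libraries (n = 3 per group) and the line and bars are mean ± SD. SRSF6 lies at 266 to 306 CPM in the 6 libraries with emetine and at 159 to 196 CPM in the 6 without, and SRSF1 is lower with emetine.

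STM2457 for 6 h raised SRSF4 and moved most other members little. In the knockdown experiment 5 of 10 members were higher (background 22.9% of 16662 genes) and none was lower (background 22.1%) by edgeR's adjusted p. The count at an unadjusted p under 0.05 was 8, with SRSF5 the lower one among them, and the share of all genes at that p was not computed. DESeq2 called 6 higher and none lower, against 3638 and 3396 of the 16662 genes. In the emetine experiment, without emetine, 3 were higher (background 26%) and 1 was lower (background 21.9%). The members' medians were 0.14 and 0.05, against −0.02 and 0 for all genes. In the knockdown experiment the count of 5 fell to 2 without any 1 of the 3 DMSO libraries, to 3 without STM2457 replicate 3, and to 0 with ribosomal protein or spike-in scaling. Over all genes 3141 to 3213 were higher without a DMSO library, 3525 without STM2457 replicate 3, and 1245 and 398 under the 2 scalings. In the emetine experiment the share was near the background.

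SRSF4 stood at 287, 309 and 296 CPM with STM2457, against 212, 226 and 209 CPM with DMSO in the knockdown experiment. In the emetine experiment it stood at 330, 350 and 327 CPM with STM2457, against 240, 242 and 240 CPM with DMSO. The groups did not overlap in either. The log2 changes were 0.46 (SE 0.05, edgeR adjusted p = 4.4e-07) and 0.48 (SE 0.03, edgeR adjusted p = 3.17e-14), folds of 1.38 (95% interval 1.29 to 1.48) and 1.39 (1.33 to 1.46). In the knockdown experiment the change was 0.20 when scaled to ribosomal protein genes and 0.11 when scaled to spike-ins, and no longer passed (edgeR adjusted p = 0.0505 and 0.661), and relative to the median of all genes it was 0.48 to 0.50 under each.

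SRSF6 stood at 165, 170 and 191 CPM with STM2457, against 155, 156 and 149 CPM with DMSO in the knockdown experiment, and at 196, 186 and 180 CPM with STM2457, against 162, 159 and 168 CPM with DMSO in the emetine experiment. The log2 changes were 0.19 (SE 0.05, edgeR adjusted p = 0.00739) and 0.20 (SE 0.04, edgeR adjusted p = 1.78e-05), without overlap. SRSF11, a protein of splicing complexes with an RS domain, rose by 0.18 (SE 0.05, edgeR adjusted p = 0.00915) and by 0.14 (SE 0.03, edgeR adjusted p = 0.0011), at 337, 335 and 367 CPM with STM2457 and 293, 304 and 320 CPM with DMSO in the knockdown experiment. Without STM2457 replicate 3 the changes of SRSF6 and SRSF11 in that experiment were 0.11 and 0.12 (edgeR adjusted p = 0.0405 and 0.036). SRSF6 also missed the threshold without DMSO replicate 3 (0.16, edgeR adjusted p = 0.0543), and SRSF11 without DMSO replicate 1 or 2 (0.13 and 0.16, edgeR adjusted p = 0.0878 and 0.0501). With ribosomal protein and spike-in scaling SRSF6 turned to −0.08 and −0.18 and SRSF11 to −0.09 and −0.19 in the knockdown experiment. In the emetine experiment the same scalings gave SRSF6 at 0.03 and 0.07 (edgeR adjusted p = 0.558 and 0.506) and SRSF11 at −0.04 and 0.00, so that neither call held there.

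TRA2B and SRSF3 were the members in which STM2457 replicate 3 of the knockdown experiment weighed most. TRA2B stood at 274, 279 and 333 CPM with STM2457, against 307, 302 and 304 CPM with DMSO there, so that replicates 1 and 2 were below and replicate 3 above all DMSO libraries. Its log2 change was −0.04 (SE 0.06, edgeR adjusted p = 0.626) with all libraries and −0.15 (SE 0.04, edgeR adjusted p = 0.00964) without replicate 3. In the emetine experiment TRA2B stood at 278, 286 and 283 CPM with STM2457, against 306, 316 and 318 CPM with DMSO, and the log2 change was −0.15 (SE 0.03, edgeR adjusted p = 0.000175). SRSF3 stood at 688, 658 and 849 CPM with STM2457, against 662, 666 and 641 CPM with DMSO in the knockdown experiment. Its change was 0.16 (edgeR adjusted p = 0.0928) with replicate 3 and 0.02 (edgeR adjusted p = 0.73) without it.

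The calls of SRSF1 (0.13, edgeR adjusted p = 0.034) and SRSF7 (0.17, edgeR adjusted p = 0.0232) in the knockdown experiment also ended without replicate 3, at 0.09 and 0.07 (edgeR adjusted p = 0.0879 and 0.154). They ended as well without each of the 3 DMSO libraries in turn, at an edgeR adjusted p of 0.0714 to 0.161, and that of SRSF1 also without STM2457 replicate 1 (0.11, edgeR adjusted p = 0.117). In the emetine experiment SRSF1 and SRSF7 stood at 0.07 each and were not called. Without replicate 3 the knockdown experiment gave 3 members higher, SRSF4, SRSF6 and SRSF11, and 1 lower, TRA2B. The plot of levels in the knockdown experiment marks that library.

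**Figure D3:**
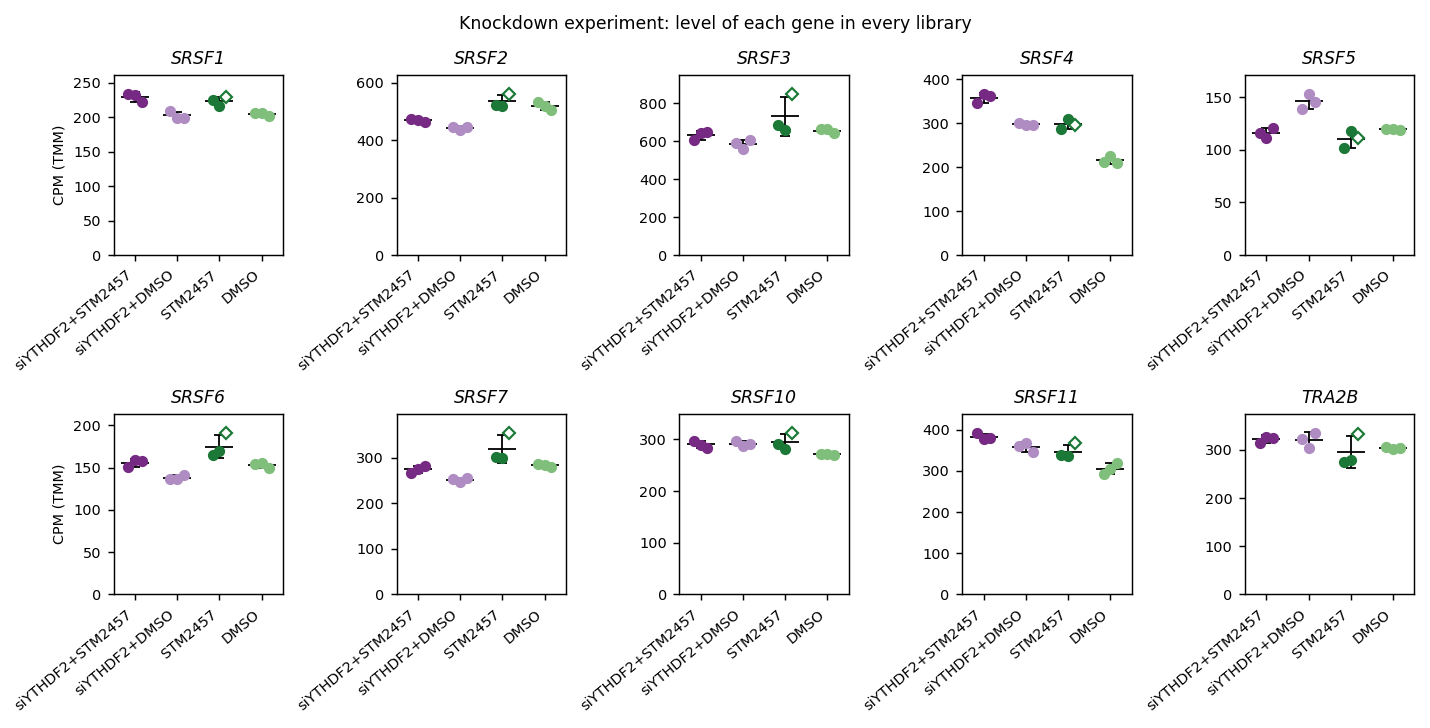
Each panel is 1 gene of the knockdown experiment, with the groups YTHDF2 siRNA with STM2457, YTHDF2 siRNA with DMSO, STM2457 and DMSO from left to right and CPM after TMM scaling on the y axis from 0; points are libraries (n = 3 per group), the open diamond is STM2457 replicate 3, and the line and bars are mean ± SD. The diamond lies above its mates in SRSF3 (849 CPM) and TRA2B (333 CPM), and SRSF4 is lowest in DMSO.

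At 9 h of STM2457 SRSF2, SRSF3, SRSF6 and TRA2B fell and SRSF4 rose after TMM scaling. Of 10 members 5 were lower (background 32.5% of 15834 genes) and 1 was higher (background 32.2%), and the median was −0.06, against 0 for all genes. Leaving out 1 library gave 4 to 5 lower, and the share was not tested against the background. TRA2B stood at 245, 284, 257 and 266 CPM with STM2457, against 310, 318, 320 and 336 CPM with DMSO. SRSF3 stood at 548, 576, 568 and 573 CPM with STM2457, against 673, 669, 682 and 669 CPM with DMSO. Neither gene overlapped between groups, with log2 changes of −0.29 (SE 0.04, edgeR adjusted p = 2.84e-07) and −0.25 (SE 0.03, edgeR adjusted p = 7.48e-08).

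SRSF6 stood at 179, 199, 192 and 198 CPM with STM2457 at 9 h, against 218, 218, 228 and 230 CPM with DMSO, and fell by 0.22 (SE 0.03, edgeR adjusted p = 3.43e-06). SRSF2 stood at 451, 498, 485 and 509 CPM with STM2457, against 567, 540, 546 and 566 CPM with DMSO, and fell by 0.19 (SE 0.04, edgeR adjusted p = 3.92e-05). These groups did not overlap. SRSF11 fell by 0.07 (SE 0.03, edgeR adjusted p = 0.0483), a call that ended in 6 of the 8 fits that left out 1 library (−0.05 to −0.07). SRSF4 stood at 297, 333, 315 and 327 CPM with STM2457, against 272, 278, 288 and 295 CPM with DMSO. It was the member that rose, by 0.17 (SE 0.04, edgeR adjusted p = 0.000203). With ribosomal protein scaling 6 members were higher and 1, TRA2B, lower, against 7511 and 2421 of the 15834 genes. SRSF2, SRSF3 and SRSF6 then stood at −0.02, −0.08 and −0.05 with no call.

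The STM2457 effect at 9 h minus that at 6 h was tested in 1 fit of 20 libraries. It was lower in 8 of 10 members (background 23.3% of 16720 genes) and higher in none (background 13.8%), with a median of −0.28 against −0.03 for all genes. At an unadjusted p under 0.05 the count was 9, all lower, and the share of all genes at that p was not computed. DESeq2 called 9 lower, against 3838 of the 16720 genes. SRSF3 and SRSF6 differed by −0.45 each (SE 0.08 and 0.07, edgeR adjusted p = 8.31e-05 and 1.19e-05), SRSF4 by −0.33 and SRSF11 by −0.29. TRA2B, SRSF2, SRSF1 and SRSF7 followed at −0.28, −0.27, −0.23 and −0.21. SRSF5 (0.03) and SRSF10 (−0.15) were not called.

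SRSF7 was lost in 4 of the 14 fits that left out 1 library: without STM2457 replicate 3 of the knockdown experiment (−0.11, edgeR adjusted p = 0.133), without DMSO replicate 3 of that experiment, and at 9 h without DMSO replicate 4 or STM2457 replicate 1 (edgeR adjusted p = 0.0502 to 0.0541). In each of these 7 members were lower. Without STM2457 replicate 3 SRSF3 and SRSF6 stood at −0.31 and −0.37, and TRA2B at −0.17. With the 6 h effect of the emetine experiment in place of that of the knockdown experiment, an alternative chosen after seeing the data, 5 were lower (2572 of 16720 genes). These were SRSF6 at −0.42, SRSF4 at −0.31, SRSF3 at −0.24, SRSF2 at −0.21 and SRSF11 at −0.20. With ribosomal protein scaling the median of all genes moved by 0.47, and 7 members were higher and none lower, against 9964 and 97 of 16720 genes. Relative to that median SRSF3 and SRSF6 stood at −0.40 and −0.41. The 9 h libraries are an experiment of their own, so time and experiment cannot be told apart. The plot of the STM2457 effect by time shows the 3 estimates beside each other.

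**Figure D4:**
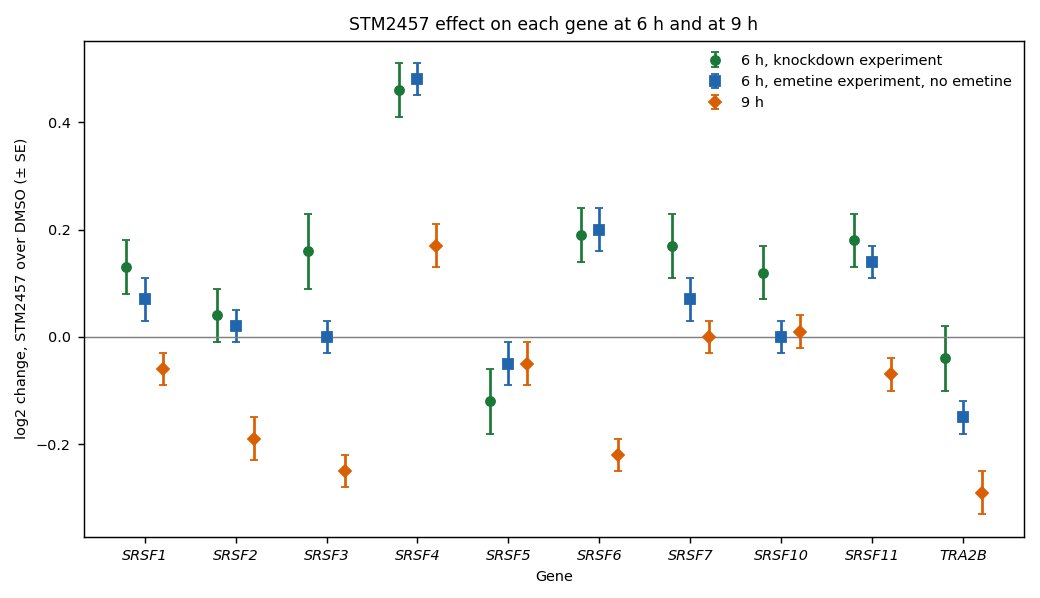
For each gene the points are the log2 change of STM2457 over DMSO at 6 h in the knockdown experiment, at 6 h in the emetine experiment without emetine, and at 9 h, from left to right, and the bars are ± SE of the fit. SRSF6 stands at 0.19 and 0.20 at 6 h and at −0.22 at 9 h, and SRSF4 is above 0 at each, at 0.46, 0.48 and 0.17.

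YTHDF2 siRNA in DMSO raised SRSF4, SRSF5 and SRSF11 and lowered SRSF2, SRSF6 and SRSF7. In DMSO 3 of 10 members were higher (background 33.1%) and 3 lower (background 29.3%), shares near the background, with a median of 0.03 against 0.02 for all genes. SRSF4 stood at 300, 297 and 295 CPM with YTHDF2 siRNA, against 212, 226 and 209 CPM without it. The groups did not overlap, and the log2 change was 0.46 (SE 0.05, edgeR adjusted p = 1.89e-07).

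SRSF5 stood at 139, 153 and 146 CPM with YTHDF2 siRNA, against 120, 120 and 119 CPM without, and rose by 0.29 (SE 0.06, edgeR adjusted p = 0.000181). SRSF11 rose by 0.23 (SE 0.05, edgeR adjusted p = 0.000981), at 361, 368 and 345 CPM with siRNA and 293, 304 and 320 CPM without. SRSF2 stood at 445, 436 and 446 CPM with YTHDF2 siRNA, against 533, 520 and 504 CPM without. It fell by 0.23 (SE 0.05, edgeR adjusted p = 0.000472), while SRSF7 fell by 0.17 (edgeR adjusted p = 0.0163) and SRSF6 fell by 0.15 (edgeR adjusted p = 0.0239), all without overlap between groups.

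Under STM2457 YTHDF2 siRNA gave 2 members higher (background 29.8%) and 4 lower (background 30.1%). SRSF4 stood at 345, 367 and 363 CPM with siRNA and STM2457, against 287, 309 and 296 CPM with STM2457 alone, a change of 0.27 (SE 0.05, edgeR adjusted p = 0.000123). SRSF2, SRSF6 and SRSF7 fell, with log2 changes of −0.19, −0.17 and −0.21 (edgeR adjusted p = 0.00275, 0.0126 and 0.00401). SRSF3 fell by 0.21 (SE 0.07, edgeR adjusted p = 0.0194) with all libraries, and stood at −0.10 (edgeR adjusted p = 0.067) without STM2457 replicate 3 and at −0.20 (edgeR adjusted p = 0.0598) without replicate 1 of siRNA with STM2457. TRA2B stood at 0.13 (edgeR adjusted p = 0.101) with all libraries and rose by 0.21 (edgeR adjusted p = 0.000454) without STM2457 replicate 3. SRSF11 rose by 0.14 (edgeR adjusted p = 0.0251), a call that ended in 5 of the 6 fits that left out 1 library. SRSF5, which rose with siRNA in DMSO, stood at 0.08 (SE 0.06, edgeR adjusted p = 0.25) under STM2457 and was not called. With ribosomal protein scaling SRSF6 in DMSO and all 4 lower calls under STM2457 missed the threshold, and with spike-in scaling, whose SEs were larger, SRSF4 in DMSO (0.49, edgeR adjusted p = 0.0382) alone passed among the calls for YTHDF2 siRNA.

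STM2457 in the presence of YTHDF2 siRNA raised SRSF4 and SRSF1, lowered SRSF5, and gave a less stable call for SRSF6. In that setting 3 of 10 members were higher (background 15.5%) and 1 lower (background 15.4%). SRSF5 stood at 116, 112 and 120 CPM with siRNA and STM2457, against 139, 153 and 146 CPM with siRNA and DMSO. The groups did not overlap, and the log2 change was −0.33 (SE 0.06, edgeR adjusted p = 0.00014), against −0.12 (SE 0.06, edgeR adjusted p = 0.0961) for STM2457 without siRNA. SRSF4 rose by 0.27 (SE 0.05, edgeR adjusted p = 0.000341), against 0.46 without siRNA. With ribosomal protein scaling this value of SRSF4 was 0.08 (edgeR adjusted p = 0.479) and with spike-in scaling −0.04, so the call ended under both. SRSF1 rose by 0.18 (edgeR adjusted p = 0.00632) and SRSF6 by 0.17 (edgeR adjusted p = 0.0203), a call of SRSF6 that ended in 4 of the 6 fits that left out 1 library (edgeR adjusted p = 0.0696 to 0.0832). With ribosomal protein and spike-in scaling SRSF1 turned to −0.01 and −0.14 and SRSF6 to −0.02 and −0.13.

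The difference between the STM2457 effects with and without YTHDF2 siRNA passed the threshold in none of the 10 members (background 1.78% higher and 6.93% lower). At an unadjusted p under 0.05 there were 2, SRSF5 at −0.21 (SE 0.08, edgeR adjusted p = 0.116) and SRSF4 at −0.19 (SE 0.07, edgeR adjusted p = 0.103). The share of all genes at that unadjusted p was not computed. DESeq2 also called none of the members, against 443 higher and 1201 lower of 16662 genes. SRSF5 passed without STM2457 replicate 1 (−0.25, edgeR adjusted p = 0.0466). A p that misses the threshold does not show that they were equal.

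STM2457 in the presence of emetine gave 5 members higher (background 21.6%) and 1 lower (background 16.2%). SRSF4 stood at 312, 322 and 328 CPM with STM2457 and emetine, against 272, 271 and 269 CPM with DMSO and emetine, a change of 0.24 (SE 0.03, edgeR adjusted p = 2.28e-07). SRSF11 stood at 328, 330 and 349 CPM with STM2457 and emetine, against 276, 283 and 288 CPM with DMSO and emetine, a change of 0.25 (SE 0.03, edgeR adjusted p = 2.22e-07). Neither gene overlapped. SRSF1 rose by 0.18 (edgeR adjusted p = 0.000242), SRSF6 by 0.14 (edgeR adjusted p = 0.00159) and SRSF7 by 0.11 (edgeR adjusted p = 0.0153), the call of SRSF7 ending without replicate 1 of DMSO with emetine (0.09, edgeR adjusted p = 0.0758). SRSF5 stood at 152, 173 and 168 CPM with STM2457 and emetine, against 196, 189 and 181 CPM with DMSO and emetine, and fell by 0.20 (SE 0.04, edgeR adjusted p = 0.000345). With spike-in scaling the 5 higher calls ended, at 0.02 to 0.16.

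The STM2457 effect with minus without emetine was lower in 1 member (background 11.1%) and higher in 1 (background 6.71%). For SRSF4 the effect was 0.24 with emetine and 0.48 without, a difference of −0.23 (SE 0.05, edgeR adjusted p = 0.00035). For TRA2B it was 0.01 with emetine and −0.15 without, a difference of 0.16 (SE 0.05, edgeR adjusted p = 0.0113). With spike-in scaling these differences were −0.19 and 0.21 and did not pass (edgeR adjusted p = 0.418 and 0.341), and with ribosomal protein scaling that of SRSF4 was −0.17 (edgeR adjusted p = 0.0771). SRSF6, which rose most with emetine, had an effect of STM2457 of 0.14 with emetine and 0.20 without, and the difference of −0.06 (SE 0.05, edgeR adjusted p = 0.441) did not pass. The plot of changes under each scaling gives the values beside the median of all genes.

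**Figure D5:**
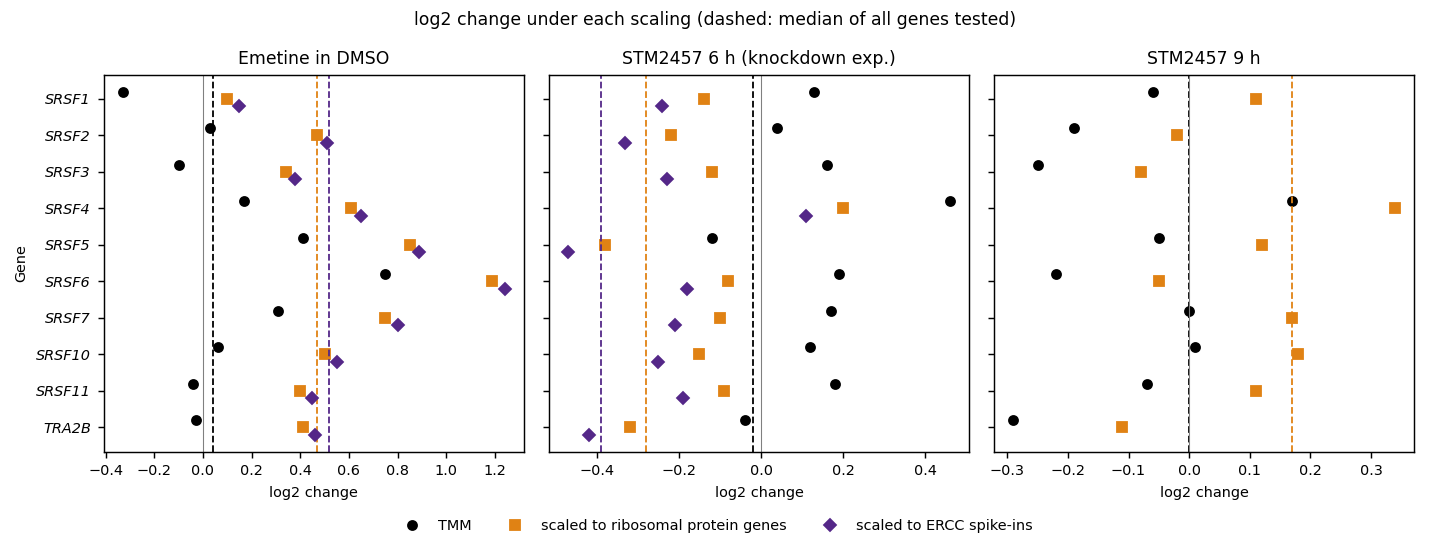
Panels show the log2 change of each gene for emetine over none in DMSO, STM2457 over DMSO at 6 h in the knockdown experiment, and STM2457 over DMSO at 9 h; symbols are TMM, scaling to 80 ribosomal protein genes and scaling to ERCC spike-ins (none at 9 h), and dashed lines are the median of all genes tested under each. Points move together with their dashed line, so that SRSF6 under emetine lies 0.71 to 0.72 to the right of it under each scaling.

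The members did not move as 1 group over the 32 libraries. With log2 CPM centred within each experiment, 45 pairs of members gave a median Pearson r of 0.175, and 13 pairs were negative. The most alike were SRSF6 and SRSF7 (r = 0.903), SRSF2 and SRSF3 (0.818) and SRSF4 and SRSF11 (0.796), and the least alike SRSF1 and SRSF5 (−0.796). The libraries share treatments and depth, so these are descriptions over 32 libraries and carry no test. Among 9754 other genes, those most like the members' mean were RMND1 (r = 0.89), ASF1A (0.879), METTL6 (0.878), SPOP (0.869) and MORC3 (0.863).

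Sequence features were taken from the annotation and carry no test against the changes. GGACT, a frequent form of the motif in which m6A is found, was counted on the sense strand in the longest coding sequence of each gene, where 72.6% of 19558 genes hold it at a median of 0.968 per kb. SRSF4 (1482 coding bases) and SRSF5 (816 coding bases) hold none, SRSF11 holds 3 (2.07 per kb), and each of the other 7 members holds 1. A match is not a methylated site, and no match says only that these letters are not in this coding sequence. SRSF4 has the longest stretch of coding sequence within 1 exon, 814 bases, against 181 to 362 bases in the other members.

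Other genes of the pathway are described as lists, beginning with kinases of SR proteins. The values below are after TMM scaling and were not recomputed under the other scalings, which shift all genes by the amounts given above. The list of SR kinases and nuclear import held 10 genes, of which 9 were tested in the emetine experiment. With emetine in DMSO 6 were higher (background 33.9%) and 1 lower (background 28.3%), with a median of 0.20 against 0.04 for all genes. CLK2, which phosphorylates RS domains in the nucleus and overlaps HCN3, rose by 0.83 (SE 0.04), DYRK1A by 0.51 and CLK4 by 0.68 (edgeR adjusted p of at most 9.27e-12). With STM2457 at 6 h in the knockdown experiment 3 of 9 tested were higher (background 22.9%) and 3 lower (background 22.1%). SRPK2 (overlapping KMT2E) and SRPK1 (overlapping LHFPL5), which phosphorylate SR proteins in the cytoplasm, stood at 0.47 and 0.34, and CLK3 (overlapping EDC3) at −0.29. At 9 h SRPK2 rose by 0.33 and SRPK1 by 0.31, while CLK3 fell by 0.37. The nuclear m6A reader YTHDC1, which binds SRSF3 and SRSF10, rose by 0.60, 0.66 and 0.40 with STM2457 in the knockdown, emetine and 9 h experiments (edgeR adjusted p of at most 2.05e-08).

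Of 14 known NMD substrates, mostly snoRNA host genes, 10 were higher (background 33.9%) and 2 lower (background 28.3%) with emetine in DMSO. Their median was 0.54. SNHG15 rose by 1.80, SNHG1 by 1.75 and GADD45B by 1.64 (edgeR adjusted p of at most 1.45e-21). With STM2457 alone 10 were higher (background 22.9%) and 1 lower (background 22.1%) in the knockdown experiment (median 0.34). In the emetine experiment 12 were higher (background 26%) and 1 lower (background 21.9%), with a median of 0.38. At 9 h 8 were higher (background 32.2%) and 2 lower (background 32.5%), with a median of 0.16. With YTHDF2 siRNA in DMSO 4 were higher (background 33.1%) and 6 lower (background 29.3%), with a median of −0.12. Of 18 NMD factors 12 were higher (background 33.9%) and 3 lower (background 28.3%) with emetine in DMSO (median 0.18). With STM2457 alone 3 were higher (background 22.9%) and 2 lower (background 22.1%) in the knockdown experiment, with a median of 0.04. In the emetine experiment 5 were higher (background 26%) and 3 lower (background 21.9%), with a median of 0. At 9 h 5 were higher (background 32.2%) and 7 lower (background 32.5%), with a median of −0.03. Among these factors SMG8, a regulator of the kinase SMG1, overlaps AC099850.2. It rose with STM2457 by 1.48, 1.41 and 0.90 in the knockdown, emetine and 9 h experiments.

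Another list held 18 other RNA-binding proteins known or proposed to regulate their own mRNA through such exons. At 9 h of STM2457 15 were lower (background 32.5%) and none higher (background 32.2%), with a median of −0.22. At 6 h in the knockdown experiment 7 were lower (background 22.1%) and 1 higher (background 22.9%), with a median of −0.09. HNRNPLL fell, with log2 changes of −2.39 at 6 h and −2.43 at 9 h, as did HNRNPL, which overlaps AC008982.1, at −0.79 and −1.47. Under emetine in DMSO 5 of these 18 were higher (background 33.9%) and 11 lower (background 28.3%), with a median of −0.16. PTBP2, whose poison form arises by skipping of an exon, was among the higher ones and rose by 1.75 (edgeR adjusted p = 3.03e-26). Of 31 further genes with SR or RS domains, 10 were higher (background 32.2%) and 16 lower (background 32.5%) at 9 h (median −0.08). At 6 h in the knockdown experiment 8 were higher (background 22.9%) and 8 lower (background 22.1%), with a median of −0.02. With emetine in DMSO 12 were higher (background 33.9%) and 8 lower (background 28.3%), with a median of 0.05. The shares at 6 h and with emetine were near the background. RSRC2 and CLASRP rose by 0.70 and 0.89 with emetine in DMSO. These lists are described by their counts, and the share of all genes called in each comparison is given above.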

How the data were processed

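Per the labels, libraries were strand-specific and made from poly(A)-selected RNA of HEK293T cells. The submitters' processing notes name cutadapt (1.18 and 4.0), FastQC 0.11.8, featureCounts, SAMtools 1.9, STAR 2.7.3a, Subread 2.0.0 and Trimmomatic, and the build GRCh38.p12. The authors deposited raw counts for each gene ID, with no normalization. ERCC rows (92, in 24 libraries) were kept apart from 60662 gene IDs.

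Groups came from the labels. Counts were fitted with edgeR 4.0.16 in R 4.3.3 (TMM, filterByExpr, quasi-likelihood F tests, Benjamini-Hochberg adjustment over all genes tested, threshold 0.05), each experiment apart. The 9 h minus 6 h difference used 20 libraries in 1 fit. In all, 9 comparisons between groups and 3 differences of effects were made. The fit was tested on simulated data. CPM are after TMM scaling, except those of the marker genes, which are counts over the library's total on genes. The 95% intervals are the log2 change ± 1.96 SE.

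Alternatives were DESeq2 1.42.0, no low-count filter, scaling to ribosomal protein genes or ERCC spike-ins, the replicate number as a block, leaving out each library, and the other experiment's 6 h effect. The plot of log2 changes by comparison gives all 10 members in the 9 comparisons between groups, and the text does not name every member in each. Of each other list up to 3 called genes are named, by smallest p. The members and lists were chosen with earlier results of these data known. The result of 1 marker list is not reported here.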

Additional observations from a re-analysis of the deposited data

Results flagged for a closer look

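The results below were marked because the effect of STM2457 differed between settings by a test of the difference itself (edgeR, adjusted p under 0.05). With emetine minus without emetine the STM2457 effect on SRSF4 differed by −0.23 (SE 0.05, adjusted p = 0.00035) and that on TRA2B by 0.16 (SE 0.05, adjusted p = 0.0113). SRSF4 was higher with STM2457 in both settings, while TRA2B was lower without emetine and not called with it.

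At 9 h minus 6 h the STM2457 effect was lower for SRSF1 (−0.23), SRSF2 (−0.27), SRSF3 (−0.45), SRSF4 (−0.33), SRSF6 (−0.45), SRSF7 (−0.21), SRSF11 (−0.29) and TRA2B (−0.28). For SRSF6 the effect was called higher at 6 h and lower at 9 h. SRSF11 was called likewise, but its 9 h call (−0.07, edgeR adjusted p = 0.0483) ended in 6 of the 8 fits that left out 1 library, and its 6 h call in the knockdown experiment without DMSO replicate 1 or 2. The 6 h and 9 h libraries come from different experiments, and the part of the experiment in these differences was not tested beyond the exchange of the 6 h libraries given above. In the 9 h groups, the ones with 4 libraries, no member had a library far from the other 3 by Dixon's test.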

How the results depend on the processing

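Scaling was the choice that mattered most, because it moves all genes together. Counts of members called are given first, as higher and lower. With spike-in scaling they were 9 and 0 for emetine in DMSO (4 and 2 with TMM) and 10 and 0 for emetine under STM2457 (5 and 1). For STM2457 they were 1 and 2 in the emetine experiment (3 and 1) and 0 and 1 in the knockdown experiment (5 and 0). In the same order, all genes gave 11558 and 227, 11548 and 219, and 2092 and 4679 of 15817, and 398 and 5023 of 16662. Members called were 0 higher for STM2457 with emetine (5), 0 higher for STM2457 with YTHDF2 siRNA (3), and 1 and 0 for YTHDF2 siRNA in DMSO (3 and 3). They were 0 and 0 for YTHDF2 siRNA under STM2457 (2 and 4), and 0 and 0 for the STM2457 effect with minus without emetine (1 and 1). In that order, all genes gave 1351 of 15817 and 138 of 16662 higher. The others were 2653 and 2229, and 2599 and 1851, of 16662, and 227 and 478 of 15817. With ribosomal protein scaling members called were 9 and 0 for emetine in DMSO (all genes 11473 and 406 of 15817). They were 10 and 0 for emetine under STM2457 (all genes 11576 and 354 of 15817). For STM2457 they were 1 and 6 in the emetine experiment (all genes 2200 and 6689 of 15817). In the knockdown experiment they were 0 and 4 (all genes 1245 and 7358 of 16662). At 9 h they were 6 and 1 (1 and 5 with TMM, all genes 7511 and 2421 of 15834). For 9 h minus 6 h they were 7 and 0 (0 and 8 with TMM, all genes 9964 and 97 of 16720). STM2457 with emetine gave 2 higher (all genes 1659 of 15817). STM2457 with YTHDF2 siRNA gave 0 and 3 (3 and 1 with TMM, all genes 703 and 4244 of 16662). YTHDF2 siRNA under STM2457 gave 0 lower (all genes 3408 of 16662), and the STM2457 effect with minus without emetine 0 lower (all genes 933 of 15817). DESeq2 gave 3 lower for emetine under STM2457 (4493 of 15817 genes) and 2 higher for the effect with minus without emetine (1131 of 15817 genes). Without the low-count filter 2 were lower for that effect (1853 of 30590 genes), and 1 was higher for YTHDF2 siRNA under STM2457 (4826 of 33278 genes). The 6 h effect from the emetine experiment, chosen after seeing the data, gave 5 lower for 9 h minus 6 h (2572 of 16720 genes).

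Values called in either fit that turned their sign did so under the other scalings. A further 61 values changed sign with no call in either fit, among them SRSF10 for 9 h minus 6 h (0.01 with the 6 h effect of the emetine experiment) and values that left out 1 library. For emetine in DMSO, spike-in and ribosomal protein scaling gave SRSF1 at 0.15 and 0.10, SRSF3 at 0.38 and 0.34, SRSF11 at 0.45 and 0.40 and TRA2B at 0.46 and 0.41. For emetine under STM2457 they gave SRSF1 at 0.31 and 0.28, SRSF3 at 0.46 and 0.43 and SRSF4 at 0.47 and 0.44. For STM2457 in the knockdown experiment they gave SRSF1 at −0.24 and −0.14, SRSF6 at −0.18 and −0.08, SRSF7 at −0.21 and −0.10 and SRSF11 at −0.19 and −0.09. With YTHDF2 siRNA they gave SRSF1 at −0.14 and −0.01 and SRSF6 at −0.13 and −0.02 under STM2457, and spike-ins gave SRSF4 at −0.04. Ribosomal protein scaling turned SRSF2 and SRSF3 to −0.22 and −0.12 for STM2457 in the knockdown experiment, TRA2B to −0.18 with YTHDF2 siRNA, and SRSF2, SRSF7 and SRSF11 to −0.15, −0.10 and −0.04 for STM2457 in the emetine experiment. Spike-in scaling, with no call, also turned SRSF2 (−0.33) and SRSF3 (−0.23) in the knockdown experiment, TRA2B with siRNA (−0.30), and SRSF2 (−0.11) and SRSF7 (−0.06) in the emetine experiment. At 9 h ribosomal protein scaling turned SRSF1, SRSF5, SRSF7 and SRSF11 to 0.11, 0.12, 0.17 and 0.11. For 9 h minus 6 h it turned SRSF1, SRSF2, SRSF3, SRSF4, SRSF6, SRSF7, SRSF10, SRSF11 and TRA2B to 0.25, 0.20, 0.04, 0.13, 0.03, 0.27, 0.32, 0.19 and 0.20. Of 1530 member values under all alternatives 1355 kept their direction and side of the threshold or were called in neither fit, 52 passed only under the alternative, 77 only in the reported fit, and 46 turned.

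Leaving out 1 library at a time gave 1 to 3 lower for emetine under STM2457, 1 to 2 lower and 3 to 4 higher for STM2457 in the emetine experiment, 2 to 7 higher and 0 to 1 lower for STM2457 in the knockdown experiment, 1 to 3 higher and 1 to 2 lower for the effect with minus without emetine, 0 to 1 lower for the effect with minus without YTHDF2 siRNA, and 1 to 3 higher for YTHDF2 siRNA under STM2457. The 2 came without any 1 of the 3 DMSO libraries and the 7 without STM2457 replicate 2. For other counts it stayed within 1.5 times.

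Over all genes spike-in scaling called 4882 genes against 10403 with TMM for YTHDF2 siRNA in DMSO, 2519 against 5146 for STM2457 with siRNA, 4450 against 9981 for siRNA under STM2457, 3932 against 5972 for STM2457 with emetine, 705 against 2810 for the emetine difference, and 0 against 1450 for the siRNA difference, where ribosomal protein scaling called 131 and leaving out 1 library gave 879 (without siRNA with DMSO replicate 1) to 2196 (without STM2457 replicate 3). For 9 h minus 6 h ribosomal protein scaling called 10061 against 6202. The share of called genes that were higher moved with ribosomal protein and spike-in scaling to 14.5% and 7.3% (50.9% with TMM) for STM2457 in the knockdown experiment, to 14.2% and 5.5% (50.1%) with YTHDF2 siRNA, to 24.7% and 30.9% (54.3%) in the emetine experiment, to 27.6% and 34.4% (57.1%) with emetine, to 96.6% and 98.1% (54.5%) for emetine in DMSO and to 97% and 98.1% (50.8%) for emetine under STM2457. With ribosomal protein scaling alone it moved to 75.6% at 9 h (49.8%), 99% for 9 h minus 6 h (37.2%), 6.9% for the siRNA difference (20.4%) and 59% for the emetine difference (37.8%).

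Replicate numbers were not used to pair the samples. Deviations of same-numbered libraries correlated above 0.1 in 3 of 18 pairs in the emetine experiment, 8 of 18 in the knockdown experiment and 0 of 4 at 9 h. In the knockdown experiment r ranged from −0.35 to 0.583, which does not settle whether the numbers pair its samples. With a replicate block SRSF3 passed for YTHDF2 siRNA in DMSO (−0.17, edgeR adjusted p = 0.0377), giving 4 lower, and SRSF11 missed at 9 h (−0.07, edgeR adjusted p = 0.0687), giving 4 lower; it changed no other member's call. In gene counts, isoforms with and without poison exons are summed, and 3 or 4 libraries a group limit the precision of small changes.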
